A study of Homo sapiens with 9 samples.

Results

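The cell line Kasumi-1 was derived from acute myeloid leukaemia with the t(8;21) translocation and makes the fusion protein AML1-ETO (AE, also RUNX1-RUNX1T1). Expression of 50 genes of the unfolded protein response and the amino acid response was read in this line, by symbol, from tables of 59648 genes. All 9 libraries came from cells infected with an shRNA lentivirus for 48 h and kept in 1 µg/mL puromycin for another 48 h, with total RNA taken on day 4. In 3 libraries the shRNA was aimed at AE (AE shRNA 1, 2 and 3), in 3 at LYL1 (LYL1 shRNA 538, 540 and 542), and 3 carried a control shRNA. LYL1 is a blood transcription factor of the complex that AE forms, and the knockdowns ask which genes depend on either protein. It is not stated if AE shRNA 1 to 3 differ in sequence or repeat 1 shRNA, or if each library had a culture of its own. Every p-value below therefore measures only the spread between these libraries, which may be technical. No untransduced cells were analysed here, so what all groups share with the virus and puromycin cannot be seen.

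The unfolded protein response watches over folding in the endoplasmic reticulum (ER). Of its sensors, ATF6 is cut into a transcription factor, ERN1 (IRE1) splices XBP1 mRNA into the form that makes active XBP1, and both raise the transcription of chaperones and of the machinery that discards misfolded proteins; EIF2AK3 (PERK) phosphorylates eIF2, which slows translation but favours that of ATF4. Other eIF2 kinases, GCN2 among them, answer amino acid shortage and also favour ATF4, which then raises amino acid synthesis enzymes and transporters. The 50 genes fall into 8 sensors and transcription factors, 19 genes of ER folding and degradation and 23 ATF4-type genes of amino acid supply and stress. Gene counts read mRNA amount only: cleavage of ATF6, splicing of XBP1, eIF2 phosphorylation and translation of ATF4 are not in these data.

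Both branches have known promoter elements, and windows that carry them are shown here because they are the target sites through which each branch is known to act. ATF4 pairs with C/EBP proteins on TGATGNAA. ATF6 and XBP1 act on the ER stress element, here CCAAT, then 9 bases of any kind, then CCACG, and on its second form, ATTGG, 1 base and CCACG. RefSeq start sites (GRCh38.p14), with 250 bases before and 50 after, were at hand for 43 of the 50 genes; the other 7 are EIF4EBP1, NUPR1, PDIA3, PSPH, PYCR1, SHMT2 and SLC7A11. Both strands were searched. In the lines below, written 5' to 3' on the gene's strand, capitals mark the matching site in either orientation. Of the windows with the C/EBP-ATF element 4 are shown, those of ASNS (chr7:97872439-97872506, minus strand), CHAC1 (chr15:40953232-40953299, plus strand), SLC1A5 (chr19:46784874-46784941, minus strand) and SLC3A2 (chr11:62881706-62881748, plus strand).
ASNS: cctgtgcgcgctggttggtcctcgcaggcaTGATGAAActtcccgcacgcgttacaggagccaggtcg
CHAC1: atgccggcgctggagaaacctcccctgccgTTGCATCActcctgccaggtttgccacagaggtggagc
SLC1A5: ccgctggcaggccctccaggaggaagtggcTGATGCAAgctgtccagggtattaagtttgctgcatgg
SLC3A2: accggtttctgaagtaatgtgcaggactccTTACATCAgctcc
The ER stress element is shown for HSPA5 (chr9:125241361-125241439, minus strand), HSP90B1 with 2 sites (chr12:103930186-103930369, plus strand), PDIA6 (chr2:10812823-10812901, minus strand) and XBP1 (chr22:28800573-28800651, minus strand), and its second form for HYOU1, also with 2 sites (chr11:119057244-119057420, minus strand).
HSPA5: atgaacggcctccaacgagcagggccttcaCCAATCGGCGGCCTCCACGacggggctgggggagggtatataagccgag
HSP90B1: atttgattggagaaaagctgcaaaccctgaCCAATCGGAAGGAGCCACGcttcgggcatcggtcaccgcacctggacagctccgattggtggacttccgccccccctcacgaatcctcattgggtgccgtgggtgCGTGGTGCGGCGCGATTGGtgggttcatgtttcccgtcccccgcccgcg
PDIA6: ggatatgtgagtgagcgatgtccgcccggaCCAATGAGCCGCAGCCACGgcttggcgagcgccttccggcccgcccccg
XBP1: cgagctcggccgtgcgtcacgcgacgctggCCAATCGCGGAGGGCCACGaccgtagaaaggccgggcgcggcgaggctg
HYOU1: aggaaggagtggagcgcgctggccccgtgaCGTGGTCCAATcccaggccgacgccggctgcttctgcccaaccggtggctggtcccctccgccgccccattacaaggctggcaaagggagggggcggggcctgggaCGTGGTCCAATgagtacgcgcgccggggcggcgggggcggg

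The elements were spread over the classes as follows. TGATGNAA stood in 5 of 17 ATF4-type promoters (ASNS, CHAC1, SLC1A5, SLC3A2 and SLC7A1; 29.4%), in 1 of 18 ER promoters (HERPUD1) and in 0 of 8 promoters of sensors and transcription factors, against 4.46% of all 27305 genes in the table. The ER stress element stood in 6 of 18 ER promoters (CALR, CANX, CRELD2, HSP90B1, HSPA5 and PDIA6), in 1 of 8 sensor and factor promoters (XBP1) and in 0 of 17 ATF4-type promoters, against 0.0916% of all genes. Its second form stood in 3 of 18 ER promoters (HERPUD1, HYOU1 and SDF2L1) and in no other promoter of the 43, against 0.0696% of all genes. The element TGACGTGG, bound by XBP1 and ATF6, was found in ALDH18A1 and HYOU1, in HYOU1 overlapping the second-form site, against 0.927% of all genes. CCACG alone, a part of both ER stress elements, stood in 42.1% of all promoters. A match of letters is a description of the window and shows no binding.

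The libraries held 20103275 to 28039518 counts. Levels are given as CPM, counts scaled to a common library size with TMM factors, in the order of the replicate numbers. Groups were compared with edgeR's quasi-likelihood test, adjusted by Benjamini-Hochberg over all 14741 genes tested, and a gene is called, or said to rise or fall, at an adjusted p below 0.05. RUNX1T1, the ETO part of the fusion, stood at 114, 137 and 87.7 CPM with AE knockdown, 183, 201 and 262 CPM with LYL1 knockdown and 216, 223 and 212 CPM in the controls (AE against control, log2 fold change -0.94, SE 0.18, edgeR adjusted p = 0.0082), and RUNX1 was lower as well (log2 fold change -0.76, edgeR adjusted p = 0.0129, up to 0.0558 with 1 library left out). LYL1 stood at 262, 200 and 172 CPM with AE knockdown, 80.4, 98.4 and 43.9 CPM with LYL1 knockdown and 172, 172 and 143 CPM in the controls (LYL1 against control, log2 fold change -1.13, SE 0.26, edgeR adjusted p = 0.63), so it was lower in every LYL1 knockdown library without passing the test. It was called by DESeq2 (adjusted p = 0.0217), by limma-voom with a spread per group (adjusted p = 0.042) and by edgeR without a low-count filter (adjusted p = 4.9e-07). Counts of the same group differed more in the AE knockdown (biological coefficient of variation 31.4%) than in the LYL1 knockdown (20.9%) and the controls (7.55%). Of the myeloblast markers, KIT lay between 434 and 1369 CPM and MPO between 11428 and 32494 CPM, while CD34 was low (1.14, 19.7 and 4.19 CPM with AE knockdown, 53.2, 22.1 and 9.98 CPM with LYL1 knockdown, 12.5, 12.6 and 10.5 CPM in the controls). CD33, a further myeloid marker, was higher in every knockdown library, at 117, 86 and 173.5 CPM with AE knockdown, 75.8, 77 and 82.4 CPM with LYL1 knockdown and 33.6, 32.3 and 27.8 CPM in the controls; edgeR called it with AE knockdown (log2 fold change 2.01, adjusted p = 0.00129) and not with LYL1 knockdown (1.33, adjusted p = 0.165). Summed markers of T cells, B cells, red cells, fibroblasts and epithelium stayed between 0 and 16.8 CPM. A list of 9 mature myeloid markers summed to 604, 587 and 4521 CPM with AE knockdown, 126, 94.7 and 152 CPM with LYL1 knockdown and 101, 97.9 and 91.1 CPM in the controls. BPI, a granule protein, alone gave 422, 299 and 3645 CPM of the AE knockdown sums and 20.3, 16.7 and 19 CPM in the controls, CEBPE gave 145, 196.5 and 461 CPM against 67.8, 67.1 and 59.8 CPM, and CD14 and FCN1 had 0 to 4 counts in every library. AE knockdown replicate 3 had the highest sum, the lowest RUNX1T1 and the largest share of mitochondrial rRNA, at 1.21% against 0.483% to 0.79% in the others. In bulk RNA, fewer cells of a type and less RNA per cell cannot be told apart.

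With AE knockdown most ATF4-type amino acid genes were below the controls, while the ER genes as a class had a median fold change near that of all genes. Of the 50 genes 47 were tested. CBS, PYCR1 and NUPR1 reached at most 1, 3 and 2 counts in any library and were not. CBS may share reads with a near-identical copy, if the build and annotation used hold one, so its count is uncertain. Named pseudogenes can also share reads, most for PDIA3 (19021 pseudogene counts beside 109218 of the gene over all libraries) and little for ATF4 (975 beside 80339). Against control, 12 of the 47 fell with AE knockdown and 0 rose, beside 10.2% of all tested genes called lower and 11.1% called higher. At an unadjusted p below 0.05 the counts were 24 lower and 2 higher, beside 2504 lower and 2924 higher of all 14741 tested genes. DESeq2 called 2 of the 47 higher (P4HB and DNAJB9). The 12 are ATF5, ATF6, HYOU1, ASNS, PHGDH, SHMT2, SLC7A5, SLC7A11, SLC3A2, SESN2, STC2 and VLDLR. Of these 9 are ATF4-type genes, 2 transcription factors and 1 an ER chaperone. Without control replicate 1, 2 or 3 the count of falls was 1 each time, ATF5, and without AE knockdown replicate 2 it was 19, with 4 rises.

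**Figure D1:**
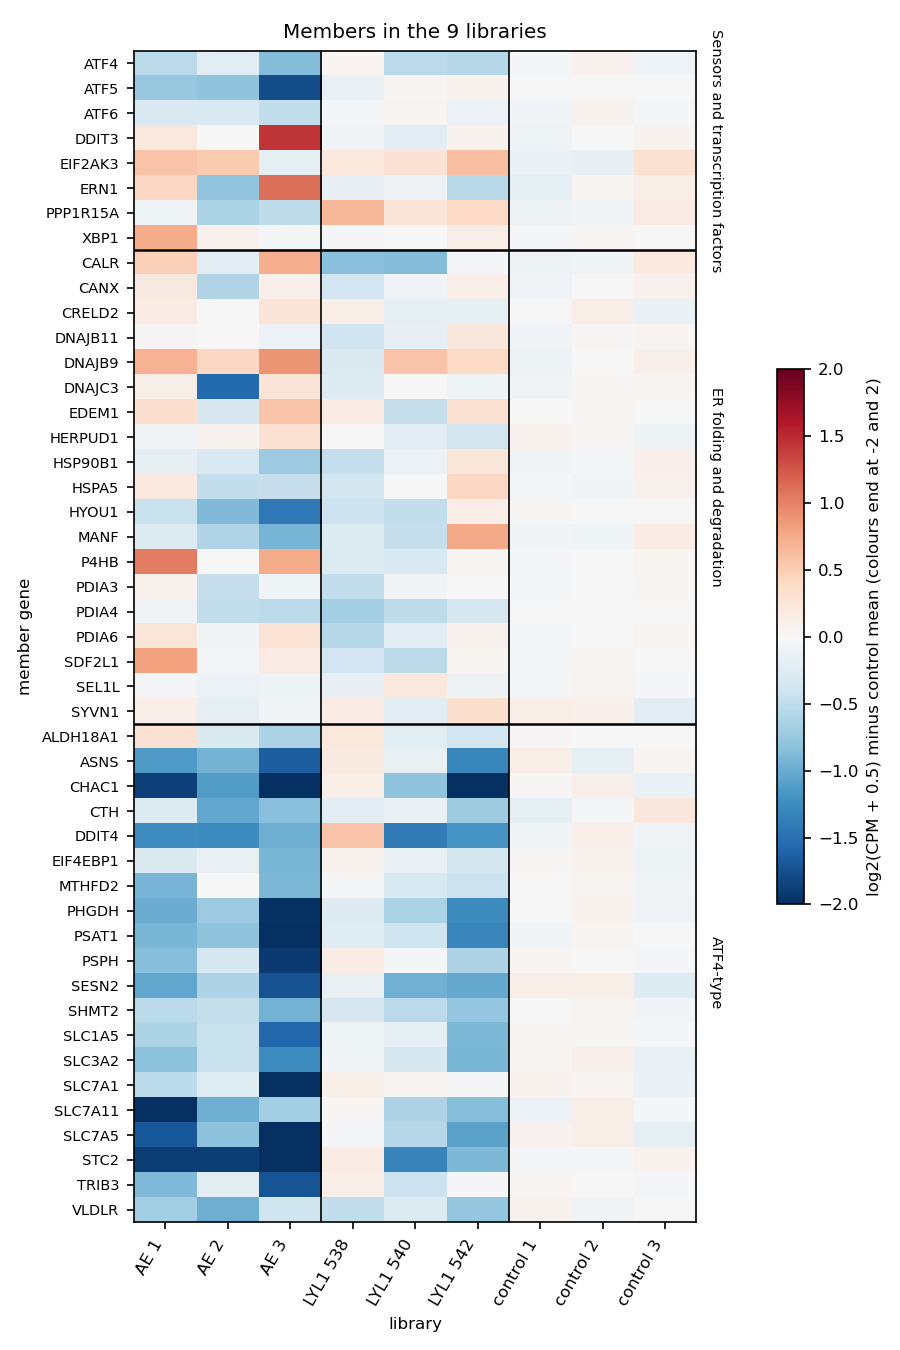
Heat map of the 47 tested genes (vertical axis, in 3 classes) in the 9 libraries (horizontal axis), coloured by log2(CPM + 0.5) minus the mean of the controls, with colours ending at -2 and 2. Most ATF4-type rows are blue in the AE knockdown columns, while ALDH18A1 lies above the controls in replicate 1. Most are deepest in replicate 3, though not SLC7A11, MTHFD2, CTH, VLDLR or DDIT4. The ER rows mix red and blue.

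Among the sensors and transcription factors, 2 of 8 fell with AE knockdown, beside 10.2% of all tested genes called lower. ATF4 itself stood at 292, 369 and 234 CPM with AE knockdown, 439, 293 and 288 CPM with LYL1 knockdown and 421, 452 and 406 CPM in the controls. All AE knockdown libraries lay below all controls, but the difference was not called (log2 fold change -0.51, SE 0.21, edgeR adjusted p = 0.0959). ATF5, a relative of ATF4 that is also translated under eIF2 phosphorylation, stood at 55.1, 53.3 and 26.9 CPM with AE knockdown, 84.3, 94.9 and 98.6 CPM with LYL1 knockdown and 93.1, 93.8 and 94.4 CPM in the controls. It was 2.08-fold lower with AE knockdown than in the controls, with no overlap (log2 fold change -1.05, SE 0.23, edgeR adjusted p = 0.0112), and the LYL1 knockdown and control ranges overlapped. This call held in each of the 9 fits that left out 1 library, with adjusted p up to 0.0488. ATF6, the ER-bound sensor that is cut into a transcription factor, stood at 118, 117 and 104 CPM with AE knockdown, 143, 150.4 and 134 CPM with LYL1 knockdown and 141, 153 and 143 CPM in the controls. Its fall was small (log2 fold change -0.37, SE 0.12, edgeR adjusted p = 0.0498). It was called in the fit without AE knockdown replicate 2 and in no other fit with 1 library left out, where adjusted p reached 0.179. The call was also lost with upper-quartile or library-size scaling, without the low-count filter and with limma-voom with a spread per group. The fit of 6 libraries and a block for replicate number lost it too. Every AE knockdown value of ATF6 lay below every value of both other groups.

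The remaining sensors and factors showed no called difference from the controls. XBP1, the factor activated by splicing, stood at 474, 303 and 278 CPM with AE knockdown, 277, 284 and 309 CPM with LYL1 knockdown and 277, 289.9 and 286 CPM in the controls. Only AE knockdown replicate 1 stood apart (log2 fold change 0.31, SE 0.19, edgeR adjusted p = 0.259). ERN1, the kinase and nuclease that splices XBP1, stood at 8.51, 3.42 and 14 CPM with AE knockdown, 5.53, 5.69 and 4.09 CPM with LYL1 knockdown and 5.47, 6.45 and 6.89 CPM in the controls, and EIF2AK3, the PERK kinase, at 18.1, 17.6 and 10.6 CPM with AE knockdown, 14.1, 14.9 and 18.6 CPM with LYL1 knockdown and 10.9, 10.7 and 15 CPM in the controls. Both overlapped the controls in each knockdown, and the AE knockdown libraries of ERN1 lay on either side of the controls. DDIT3 (CHOP), a factor of the late stress response, stood at 6.76, 5.74 and 16.3 CPM with AE knockdown, 5.53, 4.88 and 6.09 CPM with LYL1 knockdown and 5.38, 5.8 and 6.09 CPM in the controls. AE knockdown replicate 3 alone was high, the library with 4521 CPM of mature myeloid markers, whose part in this value was not tested (log2 fold change 0.73, SE 0.34, edgeR adjusted p = 0.149). PPP1R15A (GADD34), which brings a phosphatase to eIF2 and so ends the response, stood at 30.3, 20.6 and 22.5 CPM with AE knockdown, 51.2, 38.6 and 42.2 CPM with LYL1 knockdown and 29.8, 30.9 and 35.8 CPM in the controls. Its LYL1 knockdown libraries all lay above the controls, uncalled (log2 fold change 0.45, SE 0.18, edgeR adjusted p = 1). The AE knockdown libraries overlapped the controls and lay below every LYL1 knockdown library.

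Among the 19 ER folding and degradation genes, 1 fell with AE knockdown and 0 rose, beside 10.2% of all tested genes called lower and 11.1% called higher. Their estimates were above 0 in 8 and below in 11. HYOU1, a large ER chaperone that works with HSPA5, stood at 308, 227 and 155 CPM with AE knockdown, 314, 298 and 459.9 CPM with LYL1 knockdown and 425, 418 and 415 CPM in the controls. It was 1.82-fold lower with AE knockdown, with no overlap with the controls (log2 fold change -0.87, SE 0.24, edgeR adjusted p = 0.0286), and with any 1 control left out the adjusted p lay above 0.05 (up to 0.0855). HSPA5 (BiP), the main ER chaperone and a standard readout of the unfolded protein response, stood at 1032, 643 and 656 CPM with AE knockdown, 699, 911 and 1200 CPM with LYL1 knockdown and 879, 874 and 966 CPM in the controls. Every group overlapped the others (log2 fold change -0.22, SE 0.23, edgeR adjusted p = 0.513). HSP90B1 (GRP94), the ER form of HSP90, stood at 1249, 1146 and 863 CPM with AE knockdown, 1021, 1305 and 1681 CPM with LYL1 knockdown and 1356, 1388 and 1528 CPM in the controls; the AE knockdown libraries lay below the controls without a call (log2 fold change -0.39, SE 0.20, edgeR adjusted p = 0.191). HSPA5, HSP90B1 and HYOU1 all carry ER stress elements in the windows above.

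Other folding genes were high in some libraries of the AE knockdown. CALR, calreticulin, a lectin chaperone that also holds ER calcium, stood at 8071, 5019 and 9545 CPM with AE knockdown, 3263, 3188 and 5658 CPM with LYL1 knockdown and 5374, 5449 and 6653 CPM in the controls. P4HB, a protein disulfide isomerase, stood at 3708, 1821 and 3070 CPM with AE knockdown, 1515, 1477 and 1885 CPM with LYL1 knockdown and 1783, 1814 and 1902 CPM in the controls (AE against control, log2 fold change 0.65, SE 0.23, edgeR adjusted p = 0.071). In both genes AE knockdown replicates 1 and 3 were the highest of all 9 libraries and replicate 2 lay within or below the control range. MPO, a myeloblast marker, was also highest in these 2 libraries, at 32494 and 30552 CPM against 17560 to 20466 CPM in the controls, while KIT was lowest of all 9 libraries in replicate 3 (434 CPM) and CD34 in replicate 1 (1.14 CPM); their part in these values was not tested. DNAJB9 (ERdj4), a co-chaperone of HSPA5, stood at 17.1, 14 and 19.4 CPM with AE knockdown, 8.33, 15.6 and 13.8 CPM with LYL1 knockdown and 9.6, 10.3 and 11.1 CPM in the controls. Its AE knockdown libraries lay above every control, which no other of the 47 genes did, beside 3399 of all 14741 tested genes. The difference was just outside the threshold (log2 fold change 0.70, SE 0.23, edgeR adjusted p = 0.0541). PDIA4, another disulfide isomerase, stood at 405, 303 and 295 CPM with AE knockdown, 265, 299 and 340 CPM with LYL1 knockdown and 431, 427 and 422 CPM in the controls, lower than every control in both knockdowns and called in neither (log2 fold change -0.35, SE 0.16, edgeR adjusted p = 0.134). DNAJC3 (p58IPK), chosen after its values were seen, stood at 116, 36.2 and 128 CPM with AE knockdown, against 102, 109 and 109.6 CPM in the controls, low in replicate 2 alone.

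ER-associated degradation, which exports misfolded proteins to the proteasome, gave 0 of 4 calls by edgeR, and 0 at an unadjusted p below 0.05, with AE knockdown. Beside this, 10.2% of all tested genes were called lower and 11.1% higher. At the unadjusted threshold 2504 of all 14741 genes were lower and 2924 higher. HERPUD1, which organises the export complex, stood at 40.8, 44.4 and 52.5 CPM with AE knockdown, 42.2, 35.9 and 32.7 CPM with LYL1 knockdown and 44.7, 43.1 and 39.2 CPM in the controls. EDEM1, a lectin that hands over misfolded glycoproteins, stood at 198, 125 and 234 CPM with AE knockdown, 176, 113 and 195 CPM with LYL1 knockdown and 155, 159 and 156 CPM in the controls. SYVN1 (HRD1), the ubiquitin ligase of the complex, stood at 60.7, 48.7 and 53.5 CPM with AE knockdown, 62.3, 47.7 and 69.4 CPM with LYL1 knockdown and 60.4, 59.7 and 47.1 CPM in the controls. The groups overlapped in all of them and in SEL1L, the partner of SYVN1, with log2 fold changes between -0.09 and 0.24 with AE knockdown and between -0.20 and 0.10 with LYL1 knockdown.

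The ATF4-type genes gave the most falls. Of the 20 tested, 9 were called lower with AE knockdown and 0 higher, beside 10.2% and 11.1% of all tested genes. All 20 estimates were below 0, between -2.53 and -0.15 on the log2 scale, with a median of -0.87 beside 0.0475 over all tested genes. In 18 of the 20, MTHFD2 and ALDH18A1 being the exceptions, every AE knockdown library lay below every control, which held for 22.2% of all tested genes. Mature myeloid markers, at 587 to 4521 CPM in these libraries against 91.1 to 101 CPM in the controls, were higher where the class was lower. Their part in the class difference was not tested. Leaving out AE knockdown replicate 3, which had 4521 CPM of them, left the median at -0.77, with 19 of 20 estimates below 0 and 7 falls. Without AE knockdown replicate 1 there were 5 falls, without replicate 2 there were 15, and without LYL1 replicate 540 there were 6. With any 1 control left out the number of falls was 0, with medians of -0.87, -0.88 and -0.90.

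Of the 8 tested enzymes of amino acid and folate-linked synthesis, 3 fell with AE knockdown, beside 10.2% of all tested genes called lower. PHGDH, the first enzyme of serine synthesis, stood at 136, 164 and 68.6 CPM with AE knockdown, 227, 176 and 113 CPM with LYL1 knockdown and 271, 286 and 260 CPM in the controls. It was 2.22-fold lower with AE knockdown than in the controls, without overlap (log2 fold change -1.15, SE 0.31, edgeR adjusted p = 0.0273). SHMT2, the mitochondrial enzyme that splits serine to glycine, stood at 179.6, 188 and 135 CPM with AE knockdown, 208, 182 and 152 CPM with LYL1 knockdown and 259.9, 271 and 252 CPM in the controls, and was likewise below every control (log2 fold change -0.64, SE 0.16, edgeR adjusted p = 0.0213). ASNS, asparagine synthetase, stood at 0.894, 1.09 and 0.481 CPM with AE knockdown, 2.99, 2.28 and 0.748 CPM with LYL1 knockdown and 2.87, 2.22 and 2.65 CPM in the controls. Counts of this gene were low, with at most 78 counts in a library, and its 3.08-fold fall had a wide error (log2 fold change -1.62, SE 0.46, edgeR adjusted p = 0.0306). The calls of PHGDH and SHMT2 were lost with any 1 control left out (adjusted p up to 0.088 and 0.0829). That of ASNS was lost then too, without AE knockdown replicate 1 or 3 (up to 0.0949) and with limma-voom with a spread per group. With a block for replicate number the call of SHMT2 was lost. Among the other tested enzymes, PSAT1 and PSPH of serine synthesis and CTH of cysteine synthesis were below every control and uncalled, with adjusted p of 0.0504, 0.0725 and 0.0727 from edgeR. MTHFD2 and ALDH18A1 overlapped the controls (log2 fold changes -0.54 and -0.15).

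All 5 amino acid transporters were below every control in every AE knockdown library, and 3 were called. The first held for 22.2% of all tested genes, and 10.2% of them were called lower. SLC7A5 (LAT1), the carrier of large neutral amino acids, stood at 95.5, 176 and 49.4 CPM with AE knockdown, 305, 209 and 148 CPM with LYL1 knockdown and 328, 339.5 and 272 CPM in the controls. The AE knockdown values spread widely, yet the highest lay below the lowest control (log2 fold change -1.55, SE 0.40, edgeR adjusted p = 0.0235). SLC3A2 (4F2hc), the heavy chain that pairs with both SLC7A5 and SLC7A11, stood at 57.9, 74.8 and 42.7 CPM with AE knockdown, 98.4, 81.7 and 54.3 CPM with LYL1 knockdown and 105, 109.7 and 92.6 CPM in the controls (log2 fold change -0.81, SE 0.24, edgeR adjusted p = 0.0335). SLC7A11 (xCT), which takes up cystine in exchange for glutamate, stood at 7.08, 19.7 and 24 CPM with AE knockdown, 39.8, 25.2 and 21.3 CPM with LYL1 knockdown and 36.1, 43.1 and 38.3 CPM in the controls, and here AE knockdown replicate 1, not 3, was the lowest (log2 fold change -1.22, SE 0.38, edgeR adjusted p = 0.0442). The falls were 2.93-fold, 1.75-fold and 2.32-fold. SLC1A5, the glutamine carrier, and SLC7A1, of cationic amino acids, were not called (-0.81 and -0.75 on the log2 scale, edgeR adjusted p 0.0617 and 0.129). With 1 control left out the adjusted p of SLC7A5, SLC3A2 and SLC7A11 reached 0.0827, 0.109 and 0.129; the calls were also lost without AE knockdown replicate 1 (SLC7A5 and SLC3A2), AE knockdown replicate 3 (SLC3A2) or LYL1 replicate 540 (SLC3A2 and SLC7A11), and for SLC7A11 with upper-quartile factors or in the fit of 6 libraries.

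The other ATF4 stress targets gave 3 falls among 7 tested genes, all 7 below every control. Over all tested genes 10.2% were called lower, and 22.2% had every AE knockdown library below every control. STC2, a secreted glycoprotein induced by ER stress, stood at 3.47, 3.49 and 0.241 CPM with AE knockdown, 15.9, 5.3 and 7.38 CPM with LYL1 knockdown and 13.8, 13.9 and 14.9 CPM in the controls. It was 5.8-fold lower with AE knockdown than in the controls, the largest called fall of the 47 genes (log2 fold change -2.53, SE 0.66, edgeR adjusted p = 0.0243), and AE knockdown replicate 3 was close to 0. SESN2, sestrin 2, a leucine sensor that restrains mTORC1, stood at 15.3, 20.8 and 9.29 CPM with AE knockdown, 28.9, 16.4 and 15.6 CPM with LYL1 knockdown and 35.4, 35.2 and 26.8 CPM in the controls (log2 fold change -1.10, SE 0.31, edgeR adjusted p = 0.0291). VLDLR, a lipoprotein receptor counted among ATF4 targets, stood at 4.47, 3.52 and 5.53 CPM with AE knockdown, 5.18, 6.08 and 4.14 CPM with LYL1 knockdown and 7.81, 7.05 and 7.52 CPM in the controls (log2 fold change -0.73, SE 0.23, edgeR adjusted p = 0.0452). Its AE knockdown values lay close together and not lowest in replicate 3, unlike those of STC2 and SESN2. Leaving out 1 control ended all of these calls (adjusted p up to 0.0776, 0.0961 and 0.133). That of SESN2 was also lost without AE knockdown replicate 1 or 3. That of VLDLR was also lost without AE knockdown replicate 1 or 2 or LYL1 replicate 538 or 540. VLDLR was uncalled too with upper-quartile factors, without the low-count filter and in the fit of 6 libraries. With a block for replicate number the calls of STC2 and VLDLR were lost.

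CHAC1, which degrades glutathione, and DDIT4 (REDD1), an inhibitor of mTORC1, were chosen after their values were seen. CHAC1 stood at 4.11, 7.19 and 0.241 CPM with AE knockdown, 17.7, 9.14 and 2.74 CPM with LYL1 knockdown and 16.6, 17.6 and 14.7 CPM in the controls. DDIT4 stood at 2.65, 2.61 and 3.32 CPM with AE knockdown, 10.6, 2.32 and 2.79 CPM with LYL1 knockdown and 6.68, 7.65 and 6.64 CPM in the controls. Both were well below the controls in every AE knockdown library and uncalled, with standard errors of 0.81 and 0.49 around log2 fold changes of -2.06 and -1.29 (edgeR adjusted p 0.0942 and 0.0807). TRIB3, a pseudokinase that dampens ATF4, and EIF4EBP1, a brake on cap-dependent translation, were lower by less (-0.83 and -0.42, adjusted p 0.0801 and 0.142).

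**Figure D2:**
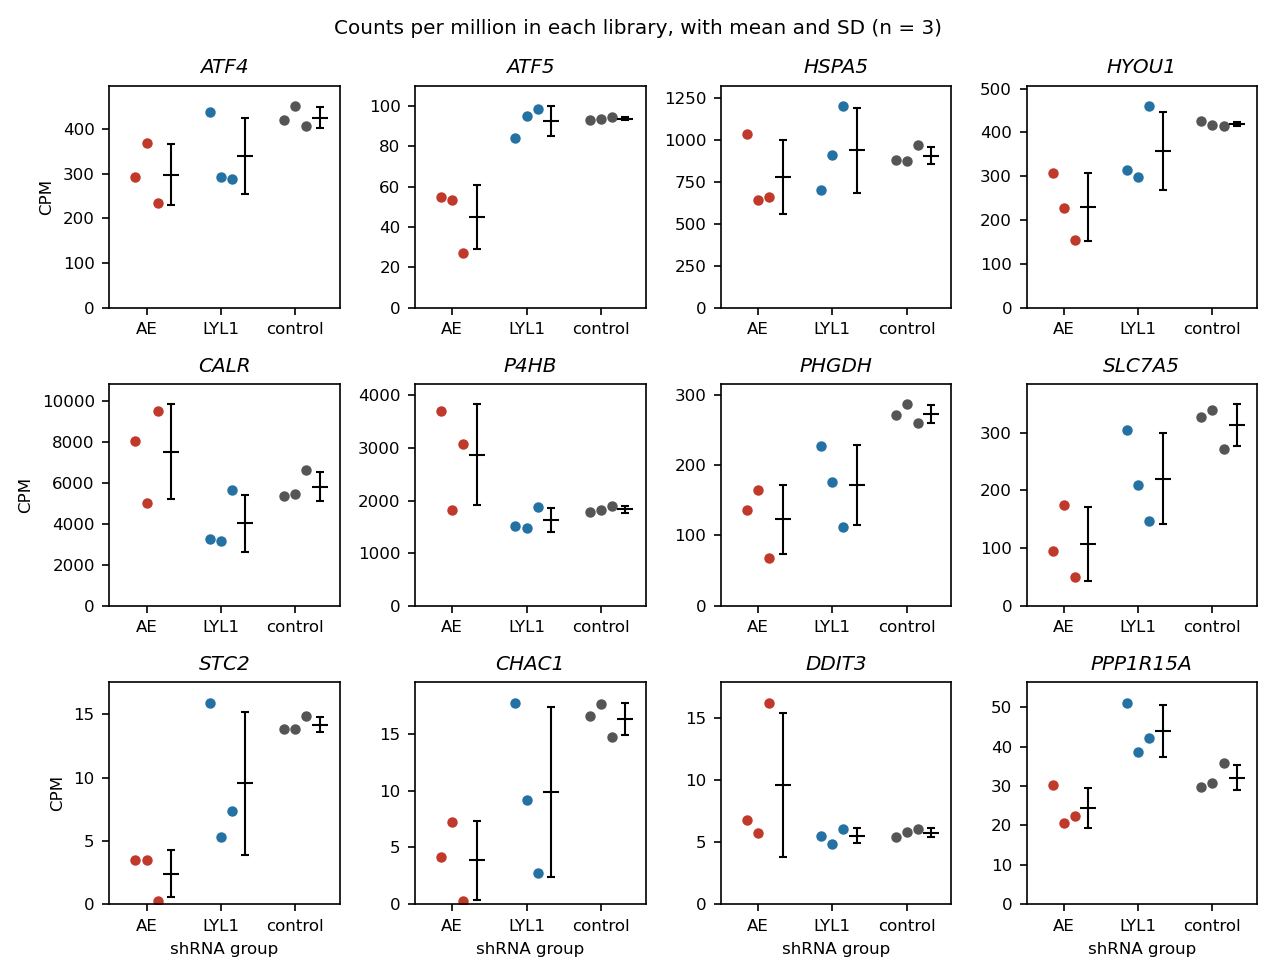
CPM (vertical axes, from 0) of 12 genes in each library of the AE knockdown, LYL1 knockdown and control groups, with the mean and SD (n = 3) beside the points. ATF5, PHGDH, SLC7A5 and STC2 lie below the controls in every AE knockdown library, whereas HSPA5 overlaps and CALR and P4HB are highest in AE knockdown replicates 1 and 3.

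The classes were then set side by side across the groups. The ER class had a median log2 fold change of -0.0379 with AE knockdown and -0.0925 with LYL1 knockdown, beside 0.0475 and 0.00545 over all tested genes. The sensors and factors had -0.0302 and -0.026. The ATF4-type class had -0.87 and -0.40. Under upper-quartile scaling the AE medians of the ER class and of the sensors moved to 0.0116 and 0.0176, above 0, and that of the ATF4-type class to -0.83. The AE median of the ER class was 0.138 without AE knockdown replicate 2 and -0.118 without replicate 1, and its LYL1 median was -0.256 without LYL1 542, where that of the ATF4-type class was -0.187, so the order of the classes turned. Within the ATF4-type class the AE and LYL1 medians were -0.83 and -0.35 for synthesis enzymes, -0.81 and -0.39 for transporters, and -1.1 and -0.54 for the other targets; within the ER class they were -0.0689 and -0.11 for chaperones and 0.0396 and 0.0163 for degradation genes. Both comparisons use the same control libraries, so their medians are not independent.

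**Figure D3:**
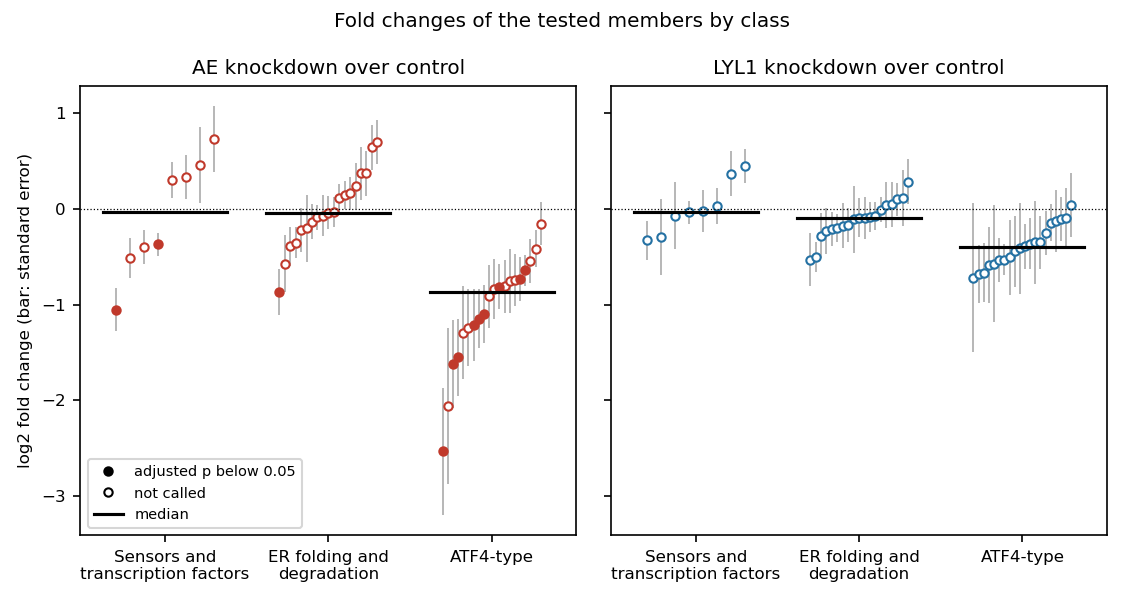
Log2 fold changes over control (vertical axis, bars are standard errors) of the tested genes by class, for AE knockdown (left) and LYL1 knockdown (right); filled points have an adjusted p below 0.05 and black lines are class medians. The ATF4-type median lies at -0.87 with AE knockdown and at -0.40 with LYL1 knockdown, where no point is filled.

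By library, the median log2 ratio of the ATF4-type genes to the control mean was -0.90, -0.67 and -1.61 with AE knockdown, -0.000941, -0.36 and -0.88 with LYL1 knockdown and 0.0175, 0.0567 and -0.0465 in the controls. For the ER genes it was 0.131, -0.208 and 0.103 with AE knockdown, -0.372, -0.214 and 0.0815 with LYL1 knockdown and -0.0392, 0.00127 and 0.0343 in the controls. In every AE knockdown library the ATF4-type median thus lay below the ER median; with LYL1 knockdown it did so in 540 and 542 and not in 538. The summed CPM of the 20 ATF4-type genes was 1257, 1570 and 773 with AE knockdown, 2074, 1687 and 1286 with LYL1 knockdown and 2213, 2294 and 2072 in the controls. The 19 ER genes summed to 18458, 11651 and 18121 CPM with AE knockdown, 9661, 10543 and 14861 CPM with LYL1 knockdown and 13457, 13674 and 15317 CPM in the controls, sums that CALR dominates.

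Target level and ATF4-type level can be read side by side in each library. AE knockdown replicate 3, with RUNX1T1 at 40.5% of the control mean, had the lowest ATF4-type median of its group, replicate 1 at 52.6% came next and replicate 2 at 63% was nearest to the controls. Among the LYL1 libraries, 542 had LYL1 at 27% of the control mean and the lowest median, while 538 at 49.5% lay at the control level and 540 at 60.5% between them. The order of the LYL1 libraries therefore does not match throughout. The sum of mature myeloid markers was highest, within each knockdown, in the same libraries, AE knockdown replicate 3 and LYL1 542. In LYL1 542 only CEBPE (104 CPM) and S100A9 (33.4 CPM) were highest of the LYL1 libraries. BPI (7.03 CPM), TYROBP, ITGAM and S100A8 were lowest there, and CSF1R lay between 538 and 540. The share of mitochondrial rRNA was 0.603%, 0.521% and 1.21% with AE knockdown, 0.507%, 0.609% and 0.79% in LYL1 538, 540 and 542, and 0.53%, 0.483% and 0.549% in the controls, so within each knockdown it was higher the lower the ATF4-type median. None of these relations was tested.

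**Figure D4:**
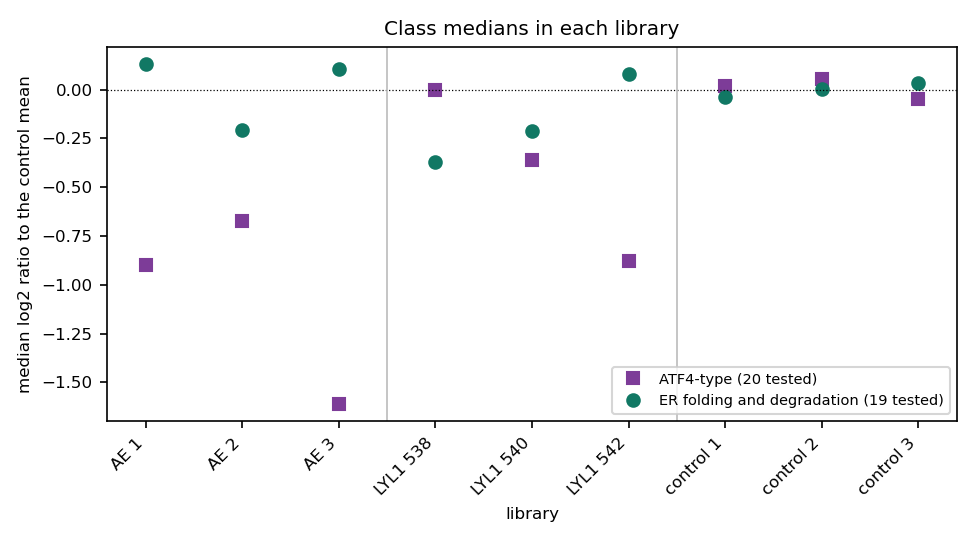
Median over the tested genes of a class of the log2 ratio to the control mean (vertical axis) in each library (horizontal axis), squares for the 20 ATF4-type genes and circles for the 19 ER genes. The lowest squares are -1.61 in AE knockdown replicate 3 and -0.88 in LYL1 542, while the circles stay between -0.372 and 0.131.

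With LYL1 knockdown 0 of the 47 genes were called by edgeR, in either direction, beside 0.00678% of all tested genes called higher and 0.00678% called lower. At an unadjusted p below 0.05, 4 were lower (PDIA4, SHMT2, SESN2 and VLDLR) and 1 higher (PPP1R15A). Among all 14741 tested genes 297 were lower and 390 higher at that threshold. DESeq2 called 0 of the 47. In 6 of the 47 every LYL1 knockdown library lay below every control, beside 8.17% of all tested genes, and 5 of them were ATF4-type genes (PHGDH, PSAT1, SHMT2, SLC1A5 and VLDLR). The largest of these 5 differences was in PHGDH (log2 fold change -0.67, SE 0.31, edgeR adjusted p = 1), with a level of 172 ± 57.3 CPM in LYL1 knockdown against 273 ± 13.1 CPM in controls (SD, n = 3 each). SHMT2 (log2 fold change -0.53, SE 0.16, edgeR adjusted p = 0.844) and PDIA4 (log2 fold change -0.50, SE 0.16, edgeR adjusted p = 0.844) had the smallest p. Of the 20 ATF4-type estimates 19 were below 0. Library 542 weighed on this: without it the median was -0.19 in place of -0.40 and 16 estimates were below 0, and without 538 the median was -0.62.

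The difference between the knockdowns was tested directly, as AE knockdown against LYL1 knockdown. Here 2 of the 47 genes were higher and 2 lower, beside 10.5% of all tested genes called higher and 9.46% called lower. ATF5 was lower with AE than with LYL1 knockdown (log2 fold change -1.04, SE 0.23, edgeR adjusted p = 0.0122) and so was PPP1R15A (log2 fold change -0.85, SE 0.18, edgeR adjusted p = 0.0108), both without overlap, and both calls held in every fit with 1 library left out. CALR (log2 fold change 0.90, SE 0.28, edgeR adjusted p = 0.0448) and P4HB (log2 fold change 0.82, SE 0.23, edgeR adjusted p = 0.0332) were higher, with overlapping libraries. The call of CALR was lost in 7 of 9 fits with 1 library left out, all but those without AE knockdown replicate 2 or LYL1 542 (adjusted p up to 0.14), and that of P4HB in 8 of 9, all but that without AE knockdown replicate 2 (up to 0.101). In the fit of these 6 libraries alone the calls of CALR, P4HB and ATF5 were lost, and with limma-voom with a spread per group that of CALR.

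Of the 20 ATF4-type genes 0 were called between the knockdowns by edgeR, beside 9.46% of all tested genes called lower and 10.5% called higher. At an unadjusted p below 0.05, 6 were lower, beside 2519 of all 14741 tested genes. All 20 estimates were below 0 (median -0.57, beside 0.028 over all tested genes). In 2 of them, STC2 and SLC7A1, every AE knockdown library lay below every LYL1 knockdown library, and in 5 of all 47 genes, beside 17.2% of all tested genes. The median was -0.34 without AE knockdown replicate 3 and -0.31 without LYL1 538. Of the 9 that fell with AE knockdown, other settings called some lower than with LYL1 knockdown: ASNS and SLC7A5 with DESeq2, STC2 with limma-voom, these 3 and SLC7A11 without a low-count filter, ASNS without LYL1 542, SLC7A5 without AE knockdown replicate 2 and STC2 without AE knockdown replicate 3. In the fit reported here, for SHMT2 the estimated difference was -0.11 (SE 0.16), and for STC2 -1.97 (SE 0.65, edgeR adjusted p = 0.0578). DESeq2 called 6 of the 47 genes lower in place of 2.

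Genes of the same pathways outside the 50 were read from lists of other ER genes, other amino acid response genes, and eIF2 with its kinases and exchange factor. Of 52 other ER genes tested, 9 rose and 4 fell with AE knockdown, beside 11.1% of all genes called higher and 10.2% called lower (median -0.0336). The 4 with the smallest p moved in both directions. STT3B, a catalytic subunit of oligosaccharyltransferase, fell (log2 fold change -0.99, edgeR adjusted p = 0.0068), while OSTC, another subunit, rose (log2 fold change 1.02, edgeR adjusted p = 0.00703). SEC61B, of the translocation channel, rose (log2 fold change 0.55, edgeR adjusted p = 0.00905), while SEC63, which assists that channel, fell (log2 fold change -0.73, edgeR adjusted p = 0.00936). STT3B stood at 468, 711 and 635 CPM with AE knockdown, 1213, 1583 and 1284 CPM with LYL1 knockdown and 1154, 1199 and 1247 CPM in the controls. OSTC stood at 149.9, 129 and 206 CPM with AE knockdown, 73.4, 107 and 84.8 CPM with LYL1 knockdown and 78.4, 79.9 and 80.4 CPM in the controls. In both the AE knockdown libraries were clear of all others. Against LYL1 knockdown, 10 of these ER genes were higher with AE knockdown and 6 lower, led by SEC61B, STT3B, SEC63 and DDOST. In that comparison 10.5% of all tested genes were called higher and 9.46% lower. For AE knockdown against control, leaving out 1 control gave 1 or 2 rises and 2 falls. In this comparison SEC61B was uncalled without control replicate 1 or 2 (adjusted p up to 0.0576) and with a block for replicate number. Its call against LYL1 knockdown held in every fit with 1 library left out (edgeR adjusted p up to 0.015).

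Of 44 other amino acid response genes tested, 11 fell and 1 rose with AE knockdown, beside 10.2% of all genes called lower and 11.1% called higher, with a median of -0.48. SLC38A1, a glutamine carrier, fell most clearly: it stood at 193, 239 and 146 CPM with AE knockdown, 397, 334 and 341 CPM with LYL1 knockdown and 414, 424 and 442 CPM in the controls (log2 fold change -1.15, SE 0.18, edgeR adjusted p = 0.00407). KLHL24, a substrate adaptor of a ubiquitin ligase, was the gene that rose (log2 fold change 0.86, SE 0.17, edgeR adjusted p = 0.00848). SARS1 (-0.55, edgeR adjusted p = 0.0106) and CARS1 (-0.81, adjusted p = 0.0225), which charge tRNA with serine and cysteine, fell, as did GARS1, YARS1, MARS1 and EPRS1, while AARS1, NARS1, WARS1, TARS1, IARS1 and LARS1, also tRNA synthetases, were not called. With 1 control left out the list had 1 or 2 falls, none of them a synthetase other than SARS1. CARS1 reached an adjusted p of 0.0773 and SARS1 0.0562, and SARS1 was uncalled with a block for replicate number. Against LYL1 knockdown 2 of the 44 genes were lower (SLC38A1 and BCAT1, the branched-chain aminotransferase) and 1 higher (KLHL24). Of all tested genes 9.46% were called lower and 10.5% higher in that comparison. The call of BCAT1 (edgeR adjusted p = 0.0467) was lost in 6 of 9 fits with 1 library left out, those without a control or a LYL1 knockdown library (adjusted p up to 0.099), with library-size scaling and in the fit of 6 libraries. With LYL1 knockdown 0 genes of the 3 lists were called by edgeR. At an unadjusted p below 0.05 there were 1 higher and 1 lower in each of the first 2 lists and 0 in the list of eIF2 genes. Among all 14741 tested genes 390 were higher and 297 lower at that threshold.

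Of 17 genes of eIF2, its kinases, phosphatase and exchange factor, 1 fell with AE knockdown and 0 rose (median -0.19). Beside this stand 10.2% of all genes called lower and 11.1% called higher. At an unadjusted p below 0.05, 3 were lower and 1 higher, beside 2504 lower and 2924 higher of all 14741 tested genes. EIF2AK2 (PKR), the kinase that answers double-stranded RNA, fell (log2 fold change -0.53, SE 0.16, edgeR adjusted p = 0.0401), a call lost in 6 of 9 fits with 1 library left out, those without a control, AE knockdown replicate 3 or LYL1 538 or 540 (adjusted p up to 0.138), and also with upper-quartile or library-size scaling, in the fit of 6 libraries and with the replicate block. EIF2AK4 (GCN2), the kinase that senses uncharged tRNA, was not called (log2 fold change -0.35, edgeR adjusted p = 0.475), and was named after its value was seen. Between the knockdowns EIF2B4, of the exchange factor, was lower with AE knockdown (log2 fold change -0.40, SE 0.13, edgeR adjusted p = 0.0493), a call that was lost in all fits with 1 library left out other than that without AE knockdown replicate 1 (adjusted p up to 0.134).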

How the data were processed

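Total RNA of 9 Kasumi-1 libraries was sequenced, 3 with AE shRNA, 3 with LYL1 shRNA and 3 with control shRNA. The deposited files hold raw read counts per gene symbol, whole numbers without normalisation. The submitters' processing notes name featureCounts 2.0.1 beside the aligner HISAT2 2.2.0, with the build hg19, and further list SAMtools 1.7, fastp 0.20.1 and DESeq2 1.26.0. The annotation, the strand setting and the handling of reads with several matches are not given in the sources used here, so counts of overlapping genes and near-identical copies are uncertain. In 6 files 5 gene names carried a decimal suffix, which was removed.

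Counts were scaled with TMM factors, filtered with filterByExpr by group, and fitted over all 9 libraries with the robust quasi-likelihood model of edgeR 4.0.16 (limma 3.58.1 under R 4.3.3), with Benjamini-Hochberg adjustment over 14741 genes. The standard error is the log2 fold change divided by the square root of F, and fitted fold changes use a prior count of 0.125. Class values per library use log2(CPM + 0.5). In simulated counts of 14741 genes, 67 were changed 2-fold and 66 were changed 4-fold. Of those that passed the low-count filter, the AE comparison called 36.4% and 84.8%. These counts had the same spread in every group and few changed genes, so the shares need not hold for the data. The correlations of same-numbered AE and control libraries were 0.0565, -0.0249 and 0.0157, so the numbers were not treated as pairs.

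The members and lists were chosen with earlier results of these data known. Values in every library are given for each called member, for ATF4, ATF5, ATF6, DDIT3, XBP1, ERN1, EIF2AK3, HSPA5 and HSP90B1, and for the 2 members of each of 5 subclasses with the smallest p against control; from each pathway list up to 4 called genes per comparison are named, and any other gene was chosen after its values were seen. Alternatives were other scalings, filters (none, or 50 counts in 3 libraries), DESeq2 1.42.0, limma-voom, fits of 6 libraries, each library left out in turn and a block for replicate number; for the targets and pathway genes these were added after seeing the data. Promoter windows come from RefSeq (GRCh38.p14) and were not joined to coordinates of the counts.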

Additional observations from a re-analysis of the deposited data

How the results depend on the processing

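No member changed sign between the reported fit and an alternative where either called it. The AE count of 12 falls and 0 rises kept within 1.5-fold under the scalings, DESeq2 and limma-voom for falls, with 21 falls and 2 rises without a low-count filter. Rises numbered 1 with upper-quartile factors, the strict filter, limma-voom with a spread per group or only the 6 libraries compared, and 2 with DESeq2. With LYL1 knockdown 2 genes were called in all, against 1 with upper-quartile factors or the strict filter, 5 with library size only, 128 without a filter (with 1 member lower, PHGDH), 33 with DESeq2, 26 with limma-voom with a spread per group and 15 with 6 libraries. Between the knockdowns the 2 higher and 2 lower members numbered 4 and 14 without a filter, 6 lower with DESeq2, 1 higher with limma-voom with a spread per group (1710 genes against 2941) and 0 higher and 1 lower with 6 libraries (823 genes). The cause of these shifts was not tested.

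Leaving out 1 library gave 869 to 4135 called genes with AE knockdown (3134 with all), 0 to 4 rises and 1 to 19 falls among the members; 1 to 11 genes with LYL1 knockdown; and 1356 to 3917 genes between the knockdowns, with 0 to 5 members higher and 2 to 7 lower. With the replicate block, AE knockdown called 1439 genes and 9 members lower, 0 higher. The shared numbers do not pair the libraries, and AE replicate 2 correlated best with control replicate 3. The LYL1 numbers match no control. At 3 libraries a group, the simulated 1.5-fold changes were called in 7.46% of cases. The simulation gave every group the same spread and changed far fewer genes than the AE comparison called. Its shares therefore do not say which changes the data could show. Some of about that size were called with AE knockdown, such as SEC61B (1.47-fold) and SARS1 (1.46-fold).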
